A study of Homo sapiens with 54 samples.

Results

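The 44 collagen genes, taken as every row of the expression tables whose gene name is COL, a number, A and a number, out of 55906 rows in each table, were followed in 54 poly-A RNA-seq libraries from 4 human cancer cell lines. The study removed the paralogous splicing factors TRA2A and TRA2B from these lines. Both proteins bind exons and promote their inclusion. A549 and NCI-H23, lung cancer lines, carried Zim3-dCas9, a nuclease-dead Cas9 fused to a repressor domain, and were harvested 5 days after transduction with guides against control loci (Control KD), TRA2A (TRA2A KD), TRA2B (TRA2B KD) or both (TRA2A/B dual KD, called DKD here). LN229 and LN319, glioma lines, carried active Cas9 and were harvested at 7 days. Their libraries came from luciferase-expressing cells with a control knockout (Luc Control KO), a TRA2A knockout (Luc TRA2A KO) or a TRA2B knockout (Luc TRA2B KO), and from TRA2B-overexpressing cells with a control knockout (TRA2B-OE Control KO) or a TRA2A knockout (TRA2B-OE TRA2A KO). Every one of the 18 groups had 3 libraries. The labels did not say whether the 3 came from separate cultures, so the p-values measure only the spread between these libraries, which may be technical. The methods describe transduced cell populations and no isolation of single clones, so a knockout group can hold cells that kept the gene.

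Collagens are secreted proteins whose chains wind around one another in a triple helix. Fibrillar chains (types I, II, III, V, XI, XXIV and XXVII) form the cables of bone, skin and cartilage, type IV forms the sheet-like network of basement membranes, type VI forms beaded filaments, type VII forms anchoring fibrils, and FACIT chains sit on the surface of fibrils. Before secretion the chains are hydroxylated and glycosylated in the endoplasmic reticulum, and afterwards they are trimmed, cross-linked and bound by cell-surface receptors. Carcinoma and glioma cells in culture can make collagens themselves, without stromal cells.

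The targeted transcripts were checked against the labels first. In A549, TRA2A was at 69.5, 79.4 and 76.3 TPM (a transcript level scaled for gene length and library total) in Control KD and 9.56% of that mean in TRA2A KD, TRA2B was at 9.68% of its control mean in TRA2B KD, and the DKD held 13.9% and 16.3% of them. In NCI-H23 the shares were 6.54% and 10.6% in the single knockdowns and 20.5% and 25.2% in the DKD. The knockouts left more RNA, which a Cas9 cut need not remove. TRA2A stood at 62.9% of control in LN229 Luc TRA2A KO and at 33.2% in LN319, TRA2B at 65.98% and 35.1% in the TRA2B knockouts, and the overexpressing controls held 374% and 873% of the TRA2B level of Luc Control KO. In LN229 TRA2B-OE TRA2A KO, TRA2A was at 87.2% of its own control and did not pass the test (log2FC -0.23 ± 0.07, adjusted p = 0.0680), while in LN319 it was at 52.8% (log2FC -0.87 ± 0.08, adjusted p = 0.000910). TPM keeps no sequencing depth, so the depth of each library is unknown. The rows given summed to between 928908 and 964609.7 TPM. Of the A549 libraries, Control KD replicate 3 stood apart (median correlation of 0.837 with the other A549 libraries). Keratin transcripts were high in A549 and NCI-H23. In LN319 the astrocyte marker GFAP was at 2.13 ± 0.585 TPM, S100B at 0.348 ± 0.0912 and OLIG2 at 0.0101 ± 0.0106, with SOX2 at 402 ± 24.5, so several glial markers were near absent from that line. Summed endothelial markers (PECAM1, CDH5, VWF) stayed between 0.0113 and 2.03 TPM in all 54 libraries, close to 0.

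The collagen sum, the TPM of all 44 chains added up, differed widely between the lines. It averaged 2595 TPM in LN229 Luc Control KO, 986 in LN319 Luc Control KO, 712 in A549 Control KD and 137 in NCI-H23 Control KD. The lines were quantified in separate tables and were set side by side without a test. In A549, 14 chains had a control mean of at least 10 TPM, 6 lay between 1 and 10 TPM and 24 lay below 1 TPM. NCI-H23 had 4, 12 and 28 chains in these ranges, LN229 had 19, 10 and 15, and LN319 had 14, 12 and 18. A few chains made up most of each sum. The 3 highest gave 55.9% of it in A549 (COL7A1, COL4A2 and COL5A1), 51.3% in NCI-H23 (COL1A1, COL4A5 and COL5A2), 54.2% in LN229 (COL9A3, COL11A1 and COL4A2) and 51.01% in LN319 (COL6A2, COL5A2 and COL11A1). So the leading collagen was an anchoring fibril chain in A549, a fibrillar chain in NCI-H23, a cartilage-type FACIT chain in LN229 and a beaded filament chain in LN319.

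**Figure D1:**
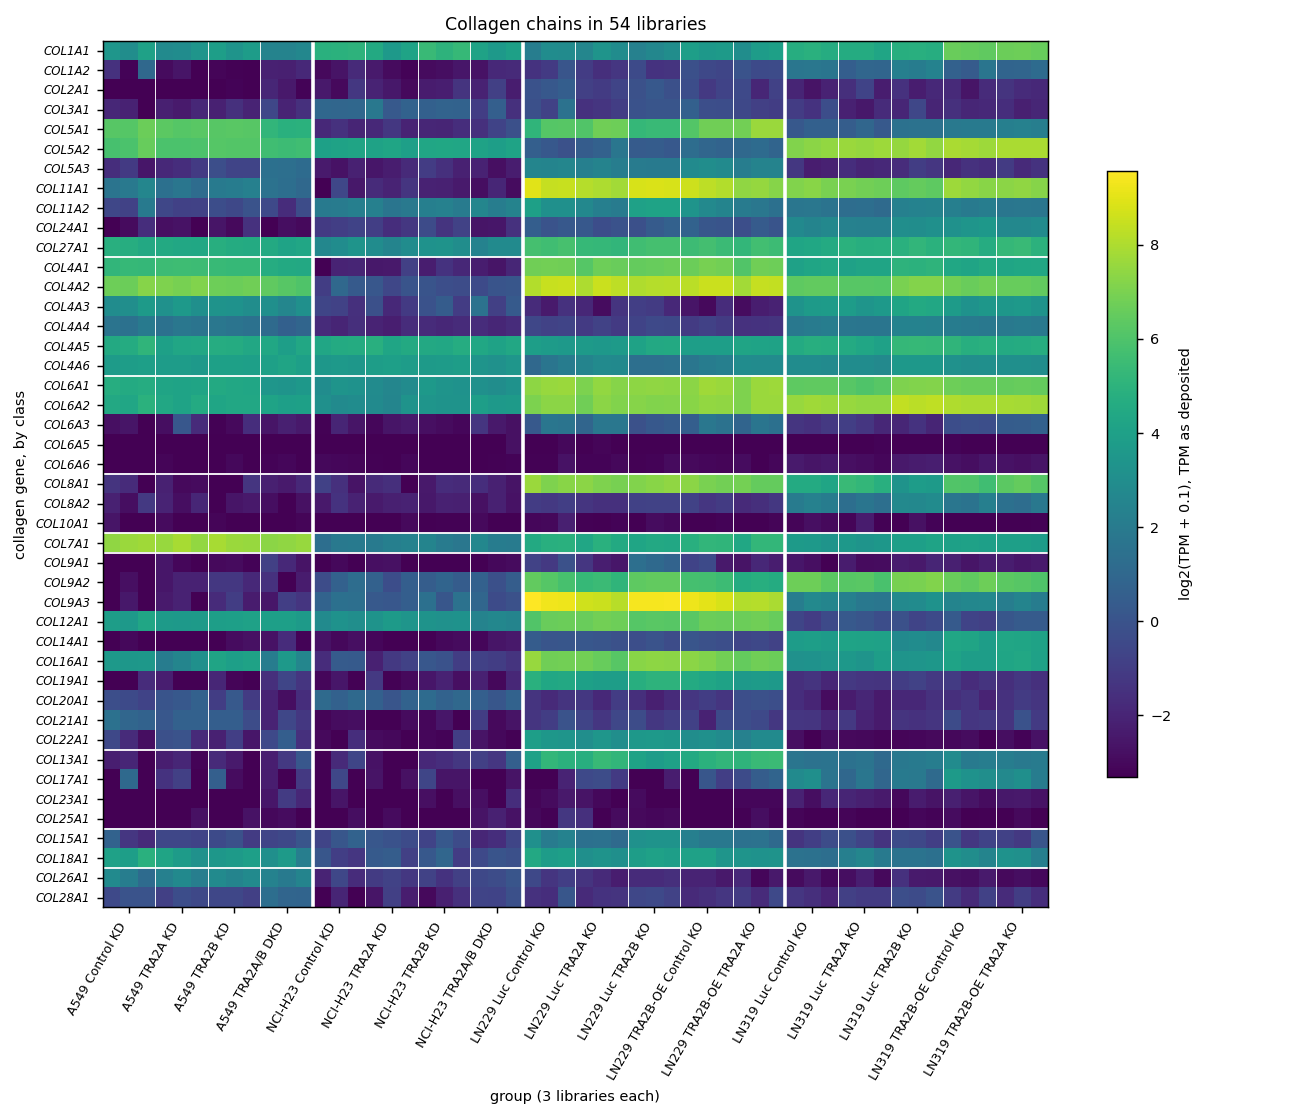
Heat map of log2(TPM + 0.1) for the 44 collagen genes (rows, grouped by structural class with white lines) in the 54 libraries (columns, 3 per group, thick white lines between cell lines). COL7A1 is brightest in A549, COL9A3 and COL11A1 in LN229, and COL6A2 and COL5A2 in LN319, while COL10A1, COL6A5, COL6A6, COL23A1 and COL25A1 stay dark throughout.

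Within each line the order of neighbouring chains was often inside the spread of the 3 control libraries. In A549, COL7A1 (197 ± 22.02 TPM, SD, n = 3) lay above COL4A2 (119 ± 25.4) and COL4A2 above COL5A1 (82.2 ± 16.4) in every library, while COL5A1 overlapped COL5A2 (71.1 ± 21.3). COL1A1 (30.5 ± 1.64 TPM), COL4A5 (22.6 ± 2.73), COL5A2 (17.3 ± 1.03) and COL4A6 (11.7 ± 0.777) were the 4 leading chains of NCI-H23, each clear of the next. LN229 had COL9A3 at 665 ± 86.9 TPM, clear of COL11A1 at 405 ± 85.2, which overlapped COL4A2 at 335 ± 52.5. LN319 had COL6A2 at 201 ± 11.6 TPM, clear of COL5A2 at 161 ± 19.8, which overlapped COL11A1 at 141 ± 13.3.

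Chains that assemble into one molecule were not always present together. Type I collagen needs COL1A1 and usually COL1A2, and COL1A1 was at 30.5 ± 1.64 TPM in NCI-H23 with COL1A2 at 0.0895 ± 0.0849. In LN319, COL1A1 was at 27.2 ± 1.95 and COL1A2 at 3.23 ± 0.0684. Type VI filaments are built from COL6A1, COL6A2 and 1 further chain. COL6A1 and COL6A2 were at 184 ± 17.4 and 152 ± 17.7 TPM in LN229 with COL6A3 at 2.43 ± 1.15, and at 84.8 ± 2.797 and 201 ± 11.6 in LN319 with COL6A3 at 0.295 ± 0.0411. Type IX, a FACIT of cartilage fibrils, is made of COL9A1, COL9A2 and COL9A3. LN229 held 72.1 ± 15.2 TPM of COL9A2 and 665 ± 86.9 of COL9A3, but 0.548 ± 0.234 of COL9A1. COL2A1, the type II chain that joins types IX and XI in cartilage fibrils, reached at most 1.102 TPM as a group mean in any of the 18 groups. COL5A1 and COL5A2, the type V chains that set fibril diameter, were both high in A549 (82.2 ± 16.4 and 71.1 ± 21.3 TPM), whereas LN229 held mainly COL5A1 (59.9 ± 21.6 against 1.0996 ± 0.283) and LN319 mainly COL5A2 (161 ± 19.8 against 1.33 ± 0.219).

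COL10A1, COL23A1, COL25A1, COL6A5 and COL6A6, 5 chains in all, had a mean below 1 TPM in all 18 groups, and their highest group means were 0.0523, 0.204, 0.118, 0.0166 and 0.0987 TPM. COL2A1, COL9A1 and COL28A1 passed 1 TPM in single groups (highest group means 1.102, 2.06 and 1.96 TPM), but not in the 4 libraries of a line that the filter asked for. These 8 chains were tested in no line, 10 chains were tested in every line and 26 in 1 to 3 lines. COL28A1 was at 0.630, 0.890 and 0.891 TPM in A549 Control KD and 2.43, 1.75 and 1.69 in the DKD, and COL9A1 at 0.490, 0.349 and 0.806 in LN229 Luc Control KO and 2.55, 2.02 and 1.61 in Luc TRA2B KO, with no test of either.

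All 44 genes were found in the GENCODE v44 annotation of GRCh38, on 17 chromosomes. Several lie in pairs. By the RefSeq starts that lie closest to each other, COL4A1 and COL4A2 start 126 bases apart on opposite strands of chromosome 13, COL4A4 and COL4A3 418 bases apart on chromosome 2 and COL4A6 and COL4A5 379 bases apart on chromosome X. Starts in GENCODE differ in part, and there the outermost start of COL4A2 lies inside COL4A1. COL6A1 and COL6A2 follow each other on chromosome 21, with 93061 bases between the genes in GENCODE. Exons of 11 chains (COL1A1, COL4A2, COL4A3, COL5A1, COL5A3, COL9A1, COL9A3, COL15A1, COL16A1, COL18A1 and COL19A1) overlap an antisense gene. The strand setting of the quantification is not given in the sources used here, so reads of the partners may not be separated. The values of these 11 chains are uncertain by that amount.

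The windows below come from RefSeq on GRCh38.p14. They are shown because COL4A1 and COL4A2 changed by like amounts in the A549 DKD and in LN319 Luc TRA2B KO, COL4A5 and COL6A2 were each called in several comparisons, and COL5A1 fell in the A549 DKD. Capitals mark GGGCGG (GC box), CCAAT and TATAAA on either strand, which were the motifs searched, and no motif overlapped another. Each window ends just before the start of the gene, apart from the type IV interval, which lies between the starts of COL4A1 and COL4A2.
COL4A1-COL4A2 interval, chr13:110307158-110307257, plus strand: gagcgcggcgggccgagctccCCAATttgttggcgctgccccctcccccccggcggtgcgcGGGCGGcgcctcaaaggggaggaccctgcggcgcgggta
COL4A5, chrX:108439588-108439837, plus strand: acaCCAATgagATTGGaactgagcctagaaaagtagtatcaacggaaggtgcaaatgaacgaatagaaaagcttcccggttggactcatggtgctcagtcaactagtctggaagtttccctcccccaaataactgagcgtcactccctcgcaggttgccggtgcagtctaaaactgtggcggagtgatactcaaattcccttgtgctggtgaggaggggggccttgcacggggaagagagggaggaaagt
COL5A1, chr9:134641553-134641802, plus strand: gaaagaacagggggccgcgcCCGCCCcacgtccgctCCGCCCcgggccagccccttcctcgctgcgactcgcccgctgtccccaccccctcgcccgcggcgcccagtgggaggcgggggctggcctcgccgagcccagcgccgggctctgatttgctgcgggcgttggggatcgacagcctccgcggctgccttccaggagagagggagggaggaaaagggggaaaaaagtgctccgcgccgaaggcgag
COL6A2, chr21:46097862-46098111, plus strand: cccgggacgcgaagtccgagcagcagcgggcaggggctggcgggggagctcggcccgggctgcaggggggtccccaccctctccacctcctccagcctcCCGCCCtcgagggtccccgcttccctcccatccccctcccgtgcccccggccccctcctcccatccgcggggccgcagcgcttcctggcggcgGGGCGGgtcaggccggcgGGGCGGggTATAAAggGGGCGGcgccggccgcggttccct

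The interval between COL4A1 and COL4A2 held 1 GC box and 1 CCAAT box within 100 bases, at a GC content of 78.000000%. The COL4A5 window, which faces COL4A6, held 2 CCAAT boxes and no GC box, COL5A1 held 2 GC boxes, and COL6A2 held 4 GC boxes and 1 TATAAA. Windows were found for 32 of the 44 genes, 44 windows in all, since some genes have several starts. A GC box lay in 24 of the 44 (54.5%) against 42.6% of 35116 windows of the same 250 bases over all genes. CCAAT lay in 12 of 44 (27.3%) against 32.01%, and TATAAA in 8 of 44 (18.2%) against 10.7%. COL1A1, COL1A2, COL2A1, COL3A1, COL5A2, COL6A1, COL6A5, COL8A1, COL9A3, COL14A1, COL20A1 and COL22A1 had no window.

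Each perturbation was compared with the control of its own line by limma on log2(TPM + 0.1) after a scaling between libraries, over every gene that reached 1 TPM in 4 or more libraries of that line. A chain was called where the p-value adjusted over all those genes was below 0.05. Fold changes are given as log2FC ± SE on that scale, which understates changes of low chains, and printed TPM are the deposited values. The comparisons within a line share control libraries. Over the 14 comparisons with a control, 31 of the 44 chains were called at least once, and 8 of the 44 were tested in no line. The share of all genes called at least once was not computed. Single comparisons called up to 43.2% of all genes, so this count alone shows no response particular to collagens.

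**Figure D2:**
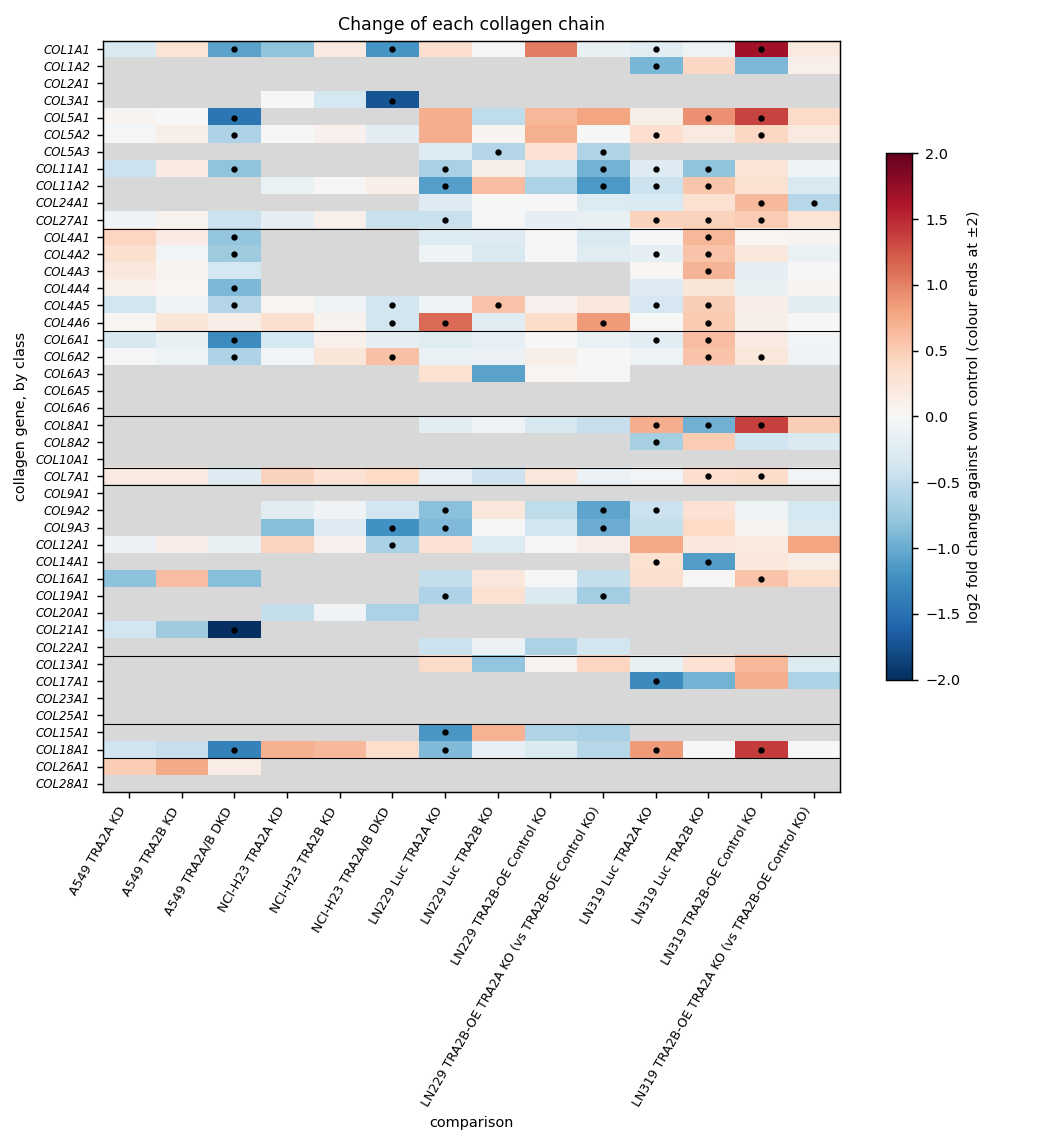
Log2 fold change (colour, red higher and blue lower, ends at ±2) of the 44 collagen genes (rows, by class) in the 14 comparisons with a control (columns). Black dots mark chains with an adjusted p below 0.05 and grey cells were not tested. Dots are absent from the 4 single knockdowns of the lung lines, and they sit on blue cells in the A549 DKD and on red type IV and type VI cells in LN319 Luc TRA2B KO.

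In A549, knockdown of both paralogs lowered 12 of 19 tested collagen chains and raised none. Of all tested genes 30.6% were called, 16.3% lower and 14.3% higher. The 12 were 4 fibrillar chains, 4 type IV chains, both expressed type VI chains, COL18A1 and COL21A1, and 5 of them fell by more than 1 on the log2 scale. The median log2FC of the 19 chains was -0.72, against 0.03 over all tested genes. The collagen sum was 640.2 to 838 TPM in the 3 control libraries and 491 to 508 in the DKD. Neither single knockdown gave a call. Of all genes 0.207% were called in TRA2A KD and 0.341% in TRA2B KD, and 5 and 1 of the 19 chains had an unadjusted p below 0.05.

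Among the fibrillar chains, COL5A1 was at 73.7, 71.7 and 101 TPM in Control KD, 79.3, 71.7 and 77.7 in TRA2A KD, 75.2, 77.8 and 74.2 in TRA2B KD and 35.8, 29.3 and 29.7 in the DKD. It fell in the DKD (log2FC -1.44 ± 0.11, adjusted p = 5.42e-06), with all 3 DKD libraries below every other library of the line. Its partner COL5A2 was at 56.2, 61.6 and 95.4 TPM in Control KD, 59.9, 61.5 and 62.5 in TRA2A KD, 72.6, 70.4 and 69.5 in TRA2B KD and 48.9, 46.2 and 48.3 in the DKD. COL5A2 fell less (log2FC -0.61 ± 0.11, adjusted p = 0.00169), again without overlap with the control. COL1A1, the main chain of type I collagen, was at 10.7, 7.94 and 16.8 TPM in Control KD, 6.99, 7.68 and 10.3 in TRA2A KD, 15.1, 10.1 and 13.9 in TRA2B KD and 5.42, 5.32 and 6.202 in the DKD. The DKD libraries lay below the 3 controls (log2FC -1.06 ± 0.23, adjusted p = 0.00594), although control replicate 3 was high. COL11A1, a type XI chain that nucleates cartilage fibrils, fell from a lower level (log2FC -0.80 ± 0.24, adjusted p = 0.0290), and the call was lost without control replicate 3 or without DKD replicate 2 or 3. COL27A1, a fibrillar chain of growth cartilage, was at 27.7, 26.6 and 21.8 TPM in Control KD, 22.8, 21.5 and 20.8 in TRA2A KD, 26.7, 24.8 and 23.7 in TRA2B KD and 22.4, 17.9 and 19.6 in the DKD. It overlapped the control and was not called (log2FC -0.42 ± 0.16, adjusted p = 0.0666). Without control replicate 3, limma called COL27A1 lower (log2FC -0.62, adjusted p = 0.00122). It was also called with a term for replicate number in the fit (adjusted p = 0.0470).

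Of the type IV chains, COL4A1 was at 35.5, 40.5 and 37.9 TPM in Control KD, 45.9, 47.6 and 45.3 in TRA2A KD, 40.9, 39.2 and 39.4 in TRA2B KD and 25.4, 23.1 and 22.1 in the DKD. COL4A1 fell in the DKD (log2FC -0.77 ± 0.10, adjusted p = 0.000241), while in TRA2A KD its 3 libraries lay above the control without passing the test (log2FC 0.44 ± 0.10, adjusted p = 0.172). COL4A2, which pairs with COL4A1 in the common basement membrane network, was at 108, 101 and 148 TPM in Control KD, 136, 123 and 140.1 in TRA2A KD, 107, 101 and 111 in TRA2B KD and 86.5, 75.3 and 65.8 in the DKD. It fell by a like amount (log2FC -0.72 ± 0.12, adjusted p = 0.00145). COL4A5 was at 22.4, 24.2 and 34.4 TPM in Control KD, 15.8, 19.5 and 20.9 in TRA2A KD, 25.7, 24.6 and 21.1 in TRA2B KD and 20.2, 15.1 and 21.2 in the DKD. Its fall (log2FC -0.59 ± 0.15, adjusted p = 0.0135) was no longer called without DKD replicate 2 (adjusted p = 0.0542). COL4A6, the neighbour of COL4A5, was at 13.3, 14.4 and 15.4 TPM in Control KD, 13.8, 13.9 and 12.5 in TRA2A KD, 16.04, 16.2 and 15.5 in TRA2B KD and 16.2, 18.1 and 15.6 in the DKD. Its DKD libraries lay just above the controls without passing the test (log2FC 0.13 ± 0.11, adjusted p = 0.390). COL4A4 fell from a mean of 3.15 to 1.75 TPM (log2FC -0.89 ± 0.22, adjusted p = 0.0102) and COL4A3, at 9.53 and 7.79 TPM, was not called (adjusted p = 0.189).

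COL6A1 and COL6A2, the expressed chains of type VI, both fell. COL6A1 was at 25.8, 23.8 and 25.3 TPM in Control KD, 18.2, 17.6 and 18.4 in TRA2A KD, 22.6, 21.1 and 19.6 in TRA2B KD and 10.97, 10.2 and 11.8 in the DKD. The DKD libraries were at less than every other library (log2FC -1.26 ± 0.11, adjusted p = 2.10e-05). COL6A2 was at 21.6, 19.6 and 30.5 TPM in Control KD, 21.1, 17.6 and 23.6 in TRA2A KD, 19.1, 21.4 and 21.5 in TRA2B KD and 17.5, 15.3 and 15.8 in the DKD. It fell less than COL6A1 (log2FC -0.61 ± 0.15, adjusted p = 0.0104). COL7A1, the anchoring fibril chain that links skin basement membrane to dermis and the highest collagen of A549, was at 173, 202 and 216 TPM in Control KD, 195, 237 and 177 in TRA2A KD, 238, 197 and 193 in TRA2B KD and 163, 171 and 189.6 in the DKD. The DKD overlapped the control and the test was not passed (log2FC -0.25 ± 0.11, adjusted p = 0.106).

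COL18A1, a basement membrane multiplexin and the precursor of endostatin, was at 16.6, 14.7 and 29.1 TPM in Control KD, 18.3, 13.6 and 9.01 in TRA2A KD, 11.3, 13.2 and 15.4 in TRA2B KD and 8.501, 12.9 and 4.53 in the DKD. It fell in the DKD (log2FC -1.35 ± 0.37, adjusted p = 0.0187), but without DKD replicate 3 the adjusted p was 0.0660. COL21A1, a FACIT chain, was low throughout, at 2.69, 1.82 and 1.54 TPM in Control KD, 1.04, 1.495 and 1.53 in TRA2A KD, 1.33, 1.37 and 0.709 in TRA2B KD and 0.147, 0.581 and 0.331 in the DKD. All DKD libraries lay below the controls (log2FC -2.36 ± 0.50, adjusted p = 0.00507), at levels where log2 values depend on the added 0.1 TPM. COL12A1, a FACIT of type I fibrils, was at 14.5, 12.5 and 19.8 TPM in Control KD, 12.7, 12.4 and 12.8 in TRA2A KD, 15.2, 15.4 and 16.7 in TRA2B KD and 15.5, 15.4 and 12.8 in the DKD. COL16A1, another FACIT, was at 12.6, 11.2 and 11.5 TPM in Control KD, 4.19, 5.67 and 8.83 in TRA2A KD, 18.3, 15.4 and 17.03 in TRA2B KD and 4.16, 12.5 and 5.999 in the DKD. Neither was called in the DKD (adjusted p = 0.427 and adjusted p = 0.101), and COL16A1 varied more than 2-fold among the libraries of single groups. COL26A1 was at 6.99, 4.32 and 2.205 TPM in Control KD and 5.08, 3.899 and 5.52 in the DKD (adjusted p = 0.808).

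The DKD change was set against the sum of both single changes, as a test of whether the paralogs' effects add up. In both lung lines the DKD left more of each target RNA than the single knockdowns did, so depletion was not equal. A difference can also come in part from uncalled changes in the single knockdowns. The DKD change of COL7A1 itself was not called. In A549, 14.7% of all genes and 7 of 19 chains differed, all 7 lower in the DKD than the sum of the single changes. COL5A1 differed by -1.49 ± 0.15 (adjusted p = 0.000183) and COL4A1 by -1.36 ± 0.14 (adjusted p = 0.000225) on the log2 scale. The others were COL4A2 at -0.99 ± 0.18 (adjusted p = 0.00447), COL6A1 at -0.79 ± 0.16 (adjusted p = 0.00949), COL5A2 at -0.71 ± 0.15 (adjusted p = 0.0118), COL7A1 at -0.61 ± 0.16 (adjusted p = 0.0249) and COL4A4 at -1.04 ± 0.31 (adjusted p = 0.0457). The call of COL7A1 was lost without any 1 of 5 of the 12 libraries (adjusted p up to 0.0681) and that of COL4A4 without any 1 of 11, and quantile normalization lost COL4A2, COL5A2 and COL7A1. On the TPM as deposited, without the scaling between libraries, 2 of these calls held, those of COL5A1 and COL4A1, and the median of all genes then lay at 0.26. Fibroblast markers were at a summed 8.68 to 11.9 TPM in A549 Control KD and 2.57 to 3.202 in the DKD, where THY1 was the 1 marker of 5 that was tested and it fell. Summed lung epithelial markers were at 9074 to 9294 and 7803 to 7906 TPM, with 4 of 6 tested markers lower and KRT19 higher. Their part in the collagen change was not tested. Without Control KD replicate 3, 12 chains were called in the DKD, but not the same ones, since COL27A1 was gained and COL11A1 lost. The range without 1 library was 10 to 12.

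**Figure D3:**
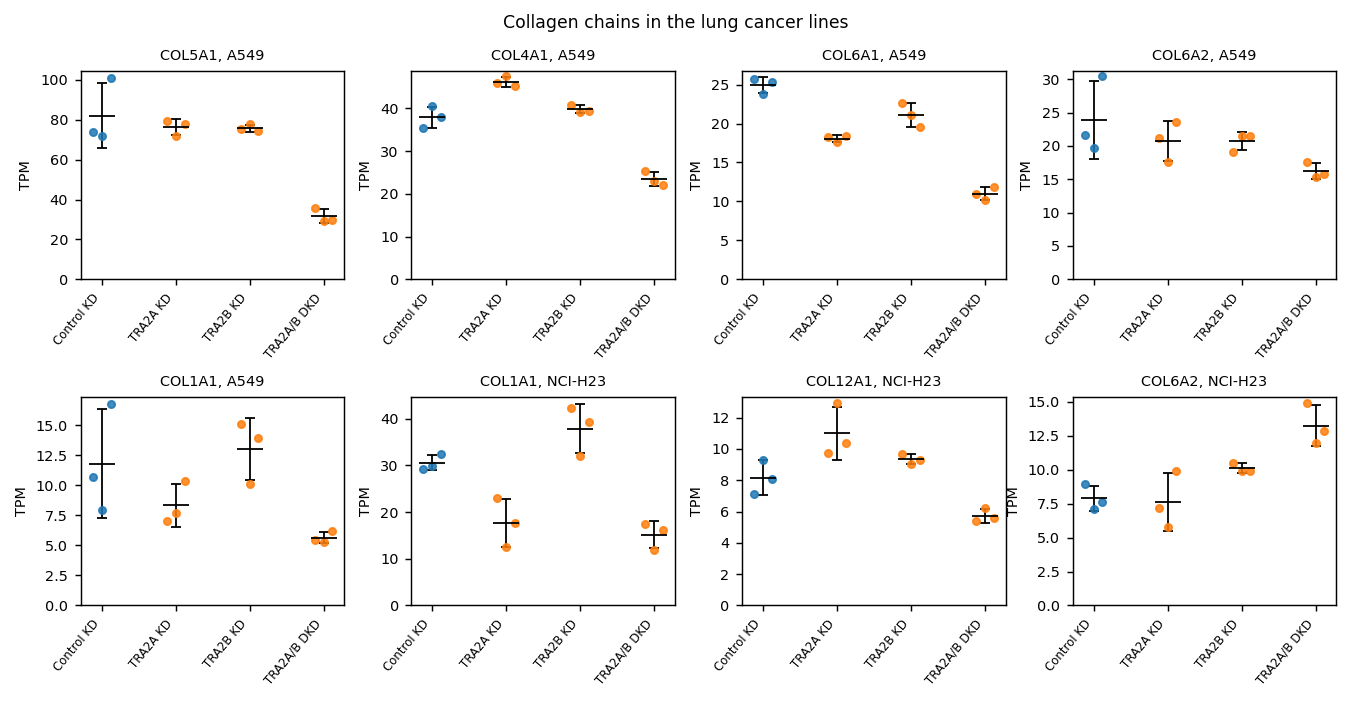
TPM of collagen chains in the lung cancer lines, 1 panel per chain and line. Points are the 3 libraries of each group, with the control in blue, and bars give the mean and SD. In A549 the DKD libraries of COL5A1, COL4A1, COL6A1, COL6A2 and COL1A1 lie below the controls. In NCI-H23 COL1A1 and COL12A1 lie below them and COL6A2 lies above.

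In NCI-H23, a line with far less collagen RNA, the DKD changed 7 of 15 tested chains, 6 lower and 1 higher, and 3 of the falls were larger than 1 on the log2 scale. This is near the share of all genes, of which 43.2% were called (23.2% lower and 20% higher). The median log2FC was -0.37 over the 15 chains and 0.02 over all genes. The collagen sum was 123 to 146 TPM in Control KD and 105 to 125 in the DKD, with overlap. Again neither single knockdown gave a call, at 0.976% of all genes in TRA2A KD and 0.196% in TRA2B KD, and 4 and 0 of the 15 chains had an unadjusted p below 0.05. Lung epithelial markers summed to 1911 to 1977 TPM in Control KD and 1375 to 1608 in the DKD, with KRT7, KRT8, KRT18 and CDH1, 4 of 5 tested, lower. NES, LUM and CD14 of the glial, fibroblast and leukocyte lists also fell, each list summing to under 7 TPM in both groups. Their part in the collagen change was not tested.

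COL1A1, the leading collagen of this line, was at 29.3, 29.9 and 32.4 TPM in Control KD, 22.9, 12.6 and 17.7 in TRA2A KD, 42.2, 32.003 and 39.3 in TRA2B KD and 17.4, 11.9 and 16.2 in the DKD. It fell in the DKD (log2FC -1.18 ± 0.19, adjusted p = 0.000489), and the libraries of TRA2A KD also lay below the control without passing the test (log2FC -0.81 ± 0.19, adjusted p = 0.0788). COL4A5 was at 19.5, 23.7 and 24.6 TPM in Control KD, 27.6, 18.9 and 22.7 in TRA2A KD, 22.2, 20.98 and 25.4 in TRA2B KD and 20.2, 16.999 and 20.9998 in the DKD. It was called lower (log2FC -0.37 ± 0.12, adjusted p = 0.0319) although the libraries overlapped. COL4A6 was at 11.2, 12.6 and 11.4 TPM in Control KD, 14.3, 15.2 and 14.01 in TRA2A KD, 12.8, 13.2 and 14.2 in TRA2B KD and 10.2, 8.99 and 11.1 in the DKD. The DKD libraries lay just below the controls (log2FC -0.37 ± 0.08, adjusted p = 0.00430) and below both single knockdowns. COL5A2 was at 16.1, 17.5 and 18.2 TPM in Control KD, 17.4, 19.01 and 15.4 in TRA2A KD, 19.9, 20.1 and 19.5 in TRA2B KD and 16.9, 15.1 and 17.7 in the DKD. It overlapped the control (log2FC -0.22 ± 0.09, adjusted p = 0.0663).

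COL6A2 was the chain that rose. It was at 8.94, 7.101 and 7.61 TPM in Control KD, 7.21, 5.75 and 9.94 in TRA2A KD, 10.5, 9.93 and 9.898 in TRA2B KD and 14.9, 11.9 and 12.9 in the DKD, so every DKD library lay above every control (log2FC 0.59 ± 0.18, adjusted p = 0.0223). The call was lost without control replicate 2 or 3 or DKD replicate 1. COL6A1 overlapped the control (log2FC -0.19 ± 0.12, adjusted p = 0.215). COL12A1 was at 7.14, 9.32 and 8.07 TPM in Control KD, 9.74, 12.9 and 10.4 in TRA2A KD, 9.66, 9.05 and 9.31 in TRA2B KD and 5.38, 6.22 and 5.57 in the DKD. It fell in the DKD (log2FC -0.66 ± 0.14, adjusted p = 0.00259) and was the lowest there of the 4 groups. COL3A1, a fibrillar chain that accompanies type I, fell from 1.89, 1.797 and 1.85 to 0.415, 1.42 and 0.242 TPM (log2FC -1.72 ± 0.54, adjusted p = 0.0243), and COL9A3 went from 1.63, 2.61 and 2.51 to 1.79, 0.671 and 0.827 with overlap (log2FC -1.20 ± 0.43, adjusted p = 0.0418). The levels of both sat near 1 TPM. The number of calls rested on single libraries. It was 3 without control replicate 2 or 3 and 4 without DKD replicate 1 or 3, and it was 4 (1 higher, 3 lower) on the TPM as deposited. Under every setting but the 2-fold limit, which COL12A1 did not reach, COL1A1 and COL12A1 were called.

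Against the sum of the single changes, 2 of 15 chains differed in NCI-H23, with 21% of all genes. COL12A1 differed by -1.18 ± 0.19 (adjusted p = 0.00168) and COL4A6 by -0.77 ± 0.12 (adjusted p = 0.00127) on the log2 scale.

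Of the 10 chains tested in both lung lines, 3 were called in both DKDs. Of all genes, 30.6% were called in the A549 DKD and 43.2% in the NCI-H23 DKD, and the share called in both was not computed. COL1A1 and COL4A5 fell in both, by 1.06 and 1.18 and by 0.59 and 0.37 on the log2 scale, although the COL4A5 call in NCI-H23 was lost without any 1 of 5 of the 6 libraries and on unscaled TPM. COL6A2 fell by 0.61 in A549 and rose by 0.59 in NCI-H23.

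In LN229, TRA2A knockout lowered 8 and raised 1 of 26 tested chains, where 3.79% of all genes were called (1.96% higher and 1.83% lower). The same knockout in TRA2B-OE cells, set against its own TRA2B-OE control, lowered 6 and raised 1, at 6.05% of all genes (2.17% higher and 3.88% lower). The 2 comparisons share no library, but a fit over all LN229 libraries gave the spread used for both. The share of all genes called in both was not computed. COL9A2, COL9A3, COL11A1, COL11A2 and COL19A1, 5 chains, fell in both, and COL4A6 rose in both. These are the type IX and type XI chains of cartilage fibrils, a further FACIT and a type IV chain. The median log2FC of the 26 chains was -0.26 in Luc cells and -0.26 in TRA2B-OE cells. The collagen sum was 2508 to 2750.2 TPM in Luc Control KO, 1838 to 2144 in Luc TRA2A KO, 2263 to 2493 in TRA2B-OE Control KO and 1633 to 2099 in TRA2B-OE TRA2A KO.

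COL9A3 was at 763, 634 and 598 TPM in Luc Control KO, 399, 379 and 289.9 in Luc TRA2A KO, 683, 679 and 699 in Luc TRA2B KO, 601, 531 and 450.1 in TRA2B-OE Control KO and 275, 287 and 245 in TRA2B-OE TRA2A KO. Both TRA2A knockouts lay below their controls without overlap, in Luc cells (log2FC -0.89 ± 0.12, adjusted p = 0.00693) and in TRA2B-OE cells (log2FC -0.999 ± 0.12, adjusted p = 0.00139). COL9A2 was at 87.7, 71.3 and 57.3 TPM in Luc Control KO, 40.1, 43.6 and 34.6 in Luc TRA2A KO, 82.2, 87.95 and 87.9 in Luc TRA2B KO, 55.5, 53.5 and 46.1 in TRA2B-OE Control KO and 24.4, 27.3 and 24.7 in TRA2B-OE TRA2A KO. It fell in Luc cells (log2FC -0.83 ± 0.13, adjusted p = 0.00974) and in TRA2B-OE cells (log2FC -1.05 ± 0.13, adjusted p = 0.00141). COL11A1 was at 503, 349.6 and 363 TPM in Luc Control KO, 284, 254 and 222 in Luc TRA2A KO, 440.4, 461 and 448 in Luc TRA2B KO, 381, 319 and 269.8 in TRA2B-OE Control KO and 170.5, 188 and 153 in TRA2B-OE TRA2A KO. Luc Control KO replicate 1 held the highest level, and each TRA2A knockout lay below its own control, with falls in Luc cells (log2FC -0.64 ± 0.14, adjusted p = 0.0282) and TRA2B-OE cells (log2FC -0.95 ± 0.14, adjusted p = 0.00269). COL11A2, the second type XI chain, was at 16.1, 8.89 and 8.81 TPM in Luc Control KO, 6.46, 4.6001 and 3.99 in Luc TRA2A KO, 16.6, 17.5 and 17.5 in Luc TRA2B KO, 10.1, 6.603 and 5.52 in TRA2B-OE Control KO and 4.005, 3.37 and 2.59 in TRA2B-OE TRA2A KO. It fell by more than 1 on the log2 scale in both backgrounds (log2FC -1.10 ± 0.26, adjusted p = 0.0373, and log2FC -1.14 ± 0.26, adjusted p = 0.0249).

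COL19A1, a FACIT chain, was at 29.5, 20.2 and 21.9 TPM in Luc Control KO, 16.2, 14.5 and 14.4 in Luc TRA2A KO, 27.1, 32.02 and 32.1 in Luc TRA2B KO, 23.5, 19.9 and 17.1 in TRA2B-OE Control KO and 12.4, 13.6 and 12.04 in TRA2B-OE TRA2A KO. It fell in Luc (log2FC -0.62 ± 0.13, adjusted p = 0.0243) and TRA2B-OE cells (log2FC -0.69 ± 0.13, adjusted p = 0.0109). COL4A6 moved the other way, from 1.94, 3.19 and 4.15 to 5.56, 7.08 and 6.97 TPM in Luc cells (log2FC 1.13 ± 0.22, adjusted p = 0.0202) and from 3.21, 4.199 and 4.63 to 7.51, 7.46 and 7.33 in TRA2B-OE cells (log2FC 0.86 ± 0.22, adjusted p = 0.0418). The multiplexins COL18A1 and COL15A1 were called in Luc cells. COL18A1 was at 21.7, 13.7 and 15.7 TPM in Luc Control KO, 8.49, 9.81 and 8.45 in Luc TRA2A KO, 14.6, 16.8 and 15.1 in Luc TRA2B KO, 16.5, 16.4 and 10.5 in TRA2B-OE Control KO and 10.1, 9.45 and 9.63 in TRA2B-OE TRA2A KO, a fall in Luc cells (log2FC -0.88 ± 0.17, adjusted p = 0.0183) with a like direction in TRA2B-OE cells that missed the threshold (log2FC -0.57 ± 0.17, adjusted p = 0.0660). COL15A1 went from 8.89, 4.08 and 5.09 to 2.604, 2.72 and 2.098 TPM in Luc cells (log2FC -1.16 ± 0.23, adjusted p = 0.0200) and was not called in TRA2B-OE cells (log2FC -0.64 ± 0.23, adjusted p = 0.117). With a term for replicate number in the fit, limma called COL18A1 lower in TRA2B-OE cells as well (adjusted p = 0.0439). COL27A1 was at 54.1, 49.1 and 55.7 TPM in Luc Control KO, 40.3, 38.9 and 35.97 in Luc TRA2A KO, 49.2, 55.2 and 55.1 in Luc TRA2B KO, 46.5, 53.1 and 43.6 in TRA2B-OE Control KO and 36.5, 50.5 and 45.8 in TRA2B-OE TRA2A KO. It was called in Luc cells (log2FC -0.44 ± 0.11, adjusted p = 0.0428) but lost that call without any 1 of the 6 libraries, and in TRA2B-OE cells it overlapped its control (adjusted p = 0.452). COL5A3, a minor type V chain, fell in TRA2B-OE cells (log2FC -0.60 ± 0.12, adjusted p = 0.0139) and was not called in Luc cells (adjusted p = 0.194).

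**Figure D4:**
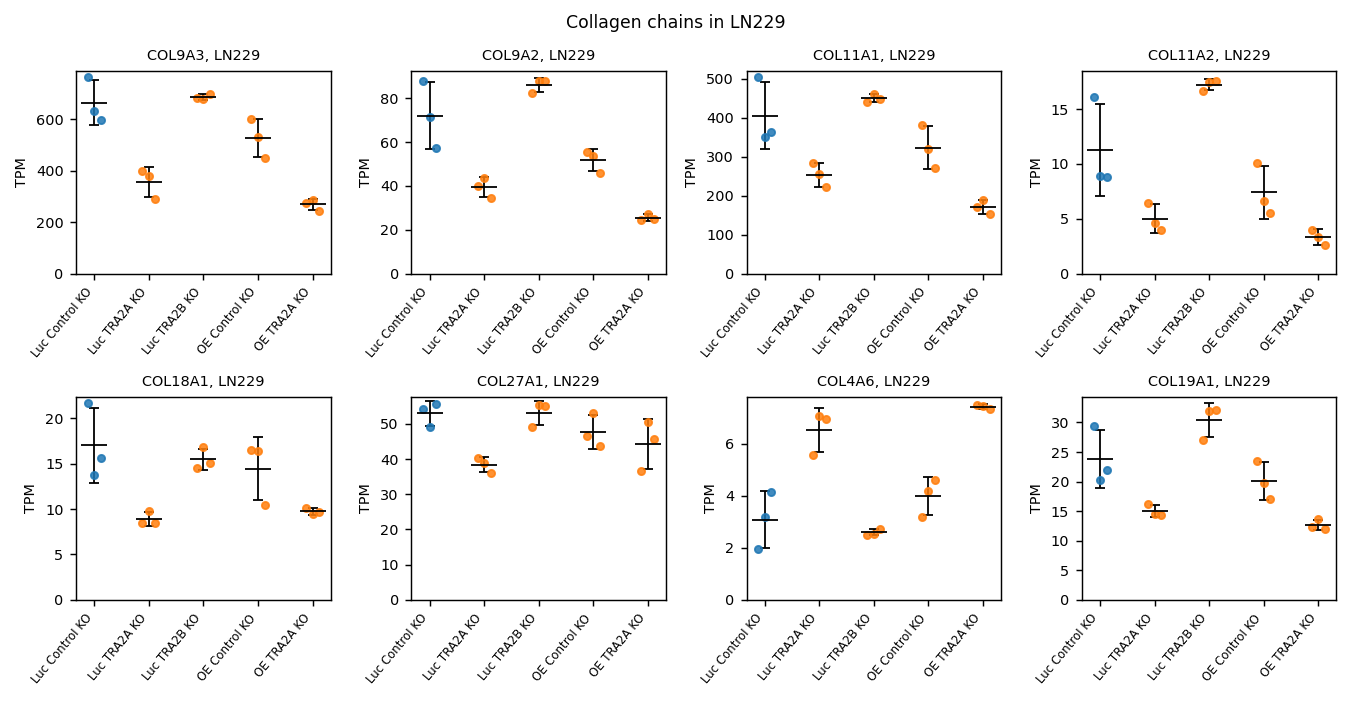
TPM of 8 collagen chains in the 5 groups of LN229. Points are the 3 libraries of each group, with Luc Control KO in blue, bars give the mean and SD, and OE stands for TRA2B-OE. COL9A3, COL9A2, COL11A1, COL11A2 and COL19A1 are lower in both TRA2A KO groups than in the control of the same background, COL4A6 is higher, and replicate 1 of Luc Control KO lies apart from the other 2 for several chains.

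These calls leaned on single libraries. In Luc cells the 9 calls became 4 without Luc Control KO replicate 1, 4 without Luc TRA2A KO replicate 2 and 1 without Luc TRA2A KO replicate 3. COL9A3 alone was called in all 6 of these fits, and none of the 9 was called when only the groups compared entered the fit. In TRA2B-OE cells the 7 calls became 4 without TRA2B-OE Control KO replicate 2, while COL9A3, COL9A2 and COL11A1 were called under every setting but the 2-fold limit. There the call of COL4A6 was lost without any 1 of 5 of the 6 libraries and that of COL11A2 without any 1 of 4. Glial markers also differed between these groups. Their 6 summed to 668 to 1281 TPM in Luc Control KO, 446 to 668 in Luc TRA2A KO, 1377 to 1448 in Luc TRA2B KO, 506 to 861 in TRA2B-OE Control KO and 310.3 to 401 in TRA2B-OE TRA2A KO. SOX2 fell in Luc TRA2A KO, and SOX2, NES and PTPRZ1 fell in TRA2B-OE TRA2A KO. In Luc TRA2B KO the glial sum lay above every Luc Control KO library, and none of the chains named in this paragraph was called there. The part of these markers in the collagen change was not tested. Summed lung epithelial markers, mainly keratins, were at 142 to 206 TPM in Luc Control KO and 230.1 to 239.6 in Luc TRA2A KO. In bulk RNA, fewer cells of a type and less RNA per cell cannot be told apart.

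The other abundant chains of LN229 were not called in either TRA2A knockout. COL4A2 was at 275, 358 and 372 TPM in Luc Control KO, 252, 369 and 317 in Luc TRA2A KO, 264, 278 and 290.5 in Luc TRA2B KO, 298, 373 and 367 in TRA2B-OE Control KO and 225, 350.1 and 334 in TRA2B-OE TRA2A KO, and the groups overlapped. COL4A1 was at 109, 115 and 111 TPM in Luc Control KO, 71.02, 107 and 98.9 in Luc TRA2A KO, 92.1, 94.998 and 101 in Luc TRA2B KO, 104, 121 and 113 in TRA2B-OE Control KO and 67.5, 111 and 107 in TRA2B-OE TRA2A KO. COL6A1 was at 164, 192 and 197 TPM in Luc Control KO, 130.01, 179 and 153 in Luc TRA2A KO, 166, 174 and 168 in Luc TRA2B KO, 163, 214 and 197 in TRA2B-OE Control KO and 134, 201 and 206 in TRA2B-OE TRA2A KO. Neither was called (adjusted p from 0.350 to 0.692 in the 2 knockouts). COL6A2 was at 131, 161 and 163 TPM in Luc Control KO, 109, 161 and 141 in Luc TRA2A KO, 148, 140.1 and 146 in Luc TRA2B KO, 155, 181 and 174 in TRA2B-OE Control KO and 134, 200.1 and 200.4 in TRA2B-OE TRA2A KO, with no call in any of the 4 comparisons. COL8A1, a short-chain collagen of the corneal Descemet membrane, was at 202, 136 and 156 TPM in Luc Control KO, 162, 135 and 122 in Luc TRA2A KO, 139.9, 157 and 172 in Luc TRA2B KO, 162, 128 and 116 in TRA2B-OE Control KO and 117, 93.1 and 91.2 in TRA2B-OE TRA2A KO. The 2 lowest libraries belonged to TRA2B-OE TRA2A KO, which was not called (log2FC -0.46 ± 0.15, adjusted p = 0.0962). A limma fit with a term for replicate number called COL8A1 lower there (adjusted p = 0.0284). COL16A1 was at 191, 109 and 112 TPM in Luc Control KO, 116, 96.6 and 73.8 in Luc TRA2A KO, 153, 166 and 163 in Luc TRA2B KO, 162, 139 and 115 in TRA2B-OE Control KO and 93.6, 109 and 102 in TRA2B-OE TRA2A KO. Luc Control KO replicate 1 was again the highest library, and the knockout was not called (adjusted p = 0.183).

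COL5A1 was at 34.96, 71.1 and 73.6 TPM in Luc Control KO, 67.5, 112 and 105 in Luc TRA2A KO, 38.9, 42.4 and 42.4 in Luc TRA2B KO, 68.6, 108 and 109 in TRA2B-OE Control KO and 115, 199 and 199 in TRA2B-OE TRA2A KO. Replicate 1 was the lowest library of every group here. All TRA2B-OE TRA2A KO libraries lay above their controls, but the test was not passed (log2FC 0.80 ± 0.31, adjusted p = 0.155). With a term for replicate number in the fit, limma called COL5A1 higher in Luc TRA2A KO (log2FC 0.72, adjusted p = 0.0199). The same fit called it higher in TRA2B-OE TRA2A KO (log2FC 0.80, adjusted p = 0.0112). COL12A1 was at 66.6, 97.5 and 103 TPM in Luc Control KO, 97.2, 112 and 106 in Luc TRA2A KO, 71.1, 77.8 and 74.5 in Luc TRA2B KO, 77.4, 101 and 98.7 in TRA2B-OE Control KO and 104, 109 and 96.9 in TRA2B-OE TRA2A KO, without a call in any comparison. COL13A1, a transmembrane collagen of the neuromuscular junction, was at 16.5, 37.4 and 30.3 TPM in Luc Control KO, 27.5, 41.2 and 35.7 in Luc TRA2A KO, 17.3, 14.1 and 16.4 in Luc TRA2B KO, 22.4, 30.4 and 35.6 in TRA2B-OE Control KO and 33.2, 43.4 and 44.1 in TRA2B-OE TRA2A KO. It varied within groups and was not called in any comparison. COL7A1 was at 23.02, 28.5 and 29.2 TPM in Luc Control KO, 19.5, 29.5 and 22.8 in Luc TRA2A KO, 19.2, 22.2 and 21.2 in Luc TRA2B KO, 27.999, 35.7 and 34.4 in TRA2B-OE Control KO and 20.8, 37.6 and 36.9 in TRA2B-OE TRA2A KO. COL22A1 was at 15.1, 11.3 and 10.7 TPM in Luc Control KO, 8.06, 10.7 and 8.101 in Luc TRA2A KO, 11.8, 11.9 and 11.4 in Luc TRA2B KO, 8.02, 8.89 and 7.43 in TRA2B-OE Control KO and 5.04, 7.21 and 7.23 in TRA2B-OE TRA2A KO. COL4A5 was at 15.1, 13.3 and 12.1 TPM in Luc Control KO, 12.9, 11.5 and 13.04 in Luc TRA2A KO, 17.4, 21.8 and 23.1 in Luc TRA2B KO, 14.96, 14.7 and 14.8 in TRA2B-OE Control KO and 18.6, 17.9 and 16.95 in TRA2B-OE TRA2A KO. Of these, COL4A5 was called, in Luc TRA2B KO.

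TRA2B knockout in LN229 called 2 of 26 chains, with 0.557% of all genes. COL4A5 rose (log2FC 0.57 ± 0.10, adjusted p = 0.0342) and COL5A3 fell from 5.79, 5.63 and 6.05 to 4.05, 3.95 and 3.93 TPM (log2FC -0.59 ± 0.12, adjusted p = 0.0485). Both calls were lost without Luc Control KO replicate 2 or 3 or Luc TRA2B KO replicate 2 or 3, where no chain was called, and COL5A3 also without Luc TRA2B KO replicate 1, where 1 chain was called. Without Luc Control KO replicate 1, 12 chains were called, and among the 10 added COL15A1 was higher and COL6A3 and COL13A1 were lower. TRA2B overexpression alone called none of 26 chains by limma, with 1.03% of all genes and 10 chains at an unadjusted p below 0.05. COL1A1 was at 4.29, 7.57 and 7.302 TPM in Luc Control KO and 15.1, 11.8 and 12.8 in TRA2B-OE Control KO, above the controls without overlap (log2FC 1.03 ± 0.29, adjusted p = 0.124). The difference between the TRA2A knockout in TRA2B-OE cells and in Luc cells was called for none of the 26 chains by limma. Of all genes 0% were called, and 1 chain, COL4A5, had an unadjusted p below 0.05 with a difference of 0.32 ± 0.14 and an adjusted p of 0.855. For COL9A3 the difference was -0.11 ± 0.18 (adjusted p = 1.000) and for COL11A1 -0.31 ± 0.20 (adjusted p = 0.965).

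In LN319, TRA2B knockout raised 11 of 27 tested chains and lowered 3. Of all genes 42.6% were called, 18.6% higher and 24% lower. The 11 were 5 of the 6 type IV chains, both expressed type VI chains, 3 fibrillar chains and COL7A1, with a median log2FC of 0.34 over the 27 chains and 0.02 over all genes. The collagen sum was 949 to 1037 TPM in Luc Control KO and 1239 to 1299 in Luc TRA2B KO. Mitochondrial transcripts took 12.1 to 12.8% of the TPM in the controls and 18.3 to 20.6% in the knockout. Fibroblast markers summed to 511 to 528 and 429.7 to 440.1 TPM, with THY1 lower. Glial markers summed to 387 to 433 and 499 to 510.5 TPM, and SOX2 made up most of the control sum. NES and PTPRZ1, 2 of 4 tested, were called higher. Lung epithelial markers summed to 364 to 375 and 297 to 312 TPM, with 5 of 6 tested lower. The part of any of these in the collagen change was not tested. The falls were COL11A1, a fibrillar chain, COL14A1, a FACIT chain, and COL8A1, a short-chain collagen.

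The type IV chains of LN319 rose together in the TRA2B knockout. COL4A1 was at 16.6, 19.3 and 20.9 TPM in Luc Control KO, 16.8, 18.2 and 18.7 in Luc TRA2A KO, 31.9, 31.4 and 33.4 in Luc TRA2B KO, 20.7, 18.7 and 22.6 in TRA2B-OE Control KO and 19.4, 20.7 and 21.5 in TRA2B-OE TRA2A KO. It rose with all TRA2B KO libraries above every other library (log2FC 0.66 ± 0.11, adjusted p = 0.000376). COL4A2, across the shared interval printed above, was at 82.2, 89.8 and 89.8 TPM in Luc Control KO, 75.4, 75.5 and 71.1 in Luc TRA2A KO, 127, 145 and 147 in Luc TRA2B KO, 113, 98.9 and 110.4 in TRA2B-OE Control KO and 95.3, 95.5 and 90.1 in TRA2B-OE TRA2A KO. Its rise was close to that of COL4A1 (log2FC 0.57 ± 0.06, adjusted p = 4.07e-05). COL4A5 was at 23.95, 27.5 and 26.1 TPM in Luc Control KO, 23.5, 19.7 and 16.8 in Luc TRA2A KO, 38.2, 39.6 and 39.1 in Luc TRA2B KO, 34.4, 27.1 and 29.004 in TRA2B-OE Control KO and 23.3, 24.5 and 26.1 in TRA2B-OE TRA2A KO. It rose (log2FC 0.49 ± 0.10, adjusted p = 0.00177), as did its neighbour COL4A6 (log2FC 0.52 ± 0.06, adjusted p = 8.22e-05). COL4A3, a chain of the kidney glomerular membrane, was at 9.698, 12.9 and 13.6 TPM in Luc Control KO, 13.8, 10.4 and 11.9 in Luc TRA2A KO, 18.7, 22.6 and 20.9 in Luc TRA2B KO, 13.3, 9.54 and 11.1 in TRA2B-OE Control KO and 11.2, 11.9 and 9.63 in TRA2B-OE TRA2A KO. It rose by a like amount (log2FC 0.68 ± 0.14, adjusted p = 0.00203), while its neighbour COL4A4 lay above the control without being called (log2FC 0.25 ± 0.10, adjusted p = 0.0671).

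The expressed type VI chains both rose. COL6A2, the leading collagen of the line, was at 192, 214 and 198 TPM in Luc Control KO, 193, 182 and 180.2 in Luc TRA2A KO, 332, 308 and 330.00 in Luc TRA2B KO, 263, 242 and 245 in TRA2B-OE Control KO and 237, 232 and 215 in TRA2B-OE TRA2A KO. It rose in the TRA2B knockout (log2FC 0.58 ± 0.05, adjusted p = 1.00e-05). COL6A1 was at 81.9, 87.4 and 85.3 TPM in Luc Control KO, 73.5, 65.9 and 76.1 in Luc TRA2A KO, 136, 140.4 and 144 in Luc TRA2B KO, 107, 97.7 and 99.97 in TRA2B-OE Control KO and 93.4, 95.7 and 91.4 in TRA2B-OE TRA2A KO. The rise was of the same size (log2FC 0.62 ± 0.06, adjusted p = 2.58e-05). COL7A1 was at 13.1, 12.2 and 10.1 TPM in Luc Control KO, 11.6, 9.98 and 11.3 in Luc TRA2A KO, 15.4, 15.2 and 17.7 in Luc TRA2B KO, 16.1, 16.8 and 15.5 in TRA2B-OE Control KO and 15.4, 15.7 and 13.9 in TRA2B-OE TRA2A KO. It was higher in Luc TRA2B KO (log2FC 0.34 ± 0.10, adjusted p = 0.0125), a call that was lost without Luc Control KO replicate 3 or Luc TRA2B KO replicate 3 (adjusted p up to 0.0587).

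The fibrillar chains split. COL11A1 was at 142, 154 and 127 TPM in Luc Control KO, 125, 113 and 105 in Luc TRA2A KO, 83.2, 91.96 and 83.6 in Luc TRA2B KO, 205, 176 and 157 in TRA2B-OE Control KO and 164, 171 and 151 in TRA2B-OE TRA2A KO. It fell in the TRA2B knockout (log2FC -0.81 ± 0.07, adjusted p = 1.76e-05), below all other groups. COL11A2, which joins COL11A1 in type XI collagen, rose instead, from 3.303, 3.38 and 2.94 to 4.88, 5.09 and 5.35 TPM (log2FC 0.55 ± 0.10, adjusted p = 0.000919). COL5A1 rose from a mean of 1.33 to 2.77 TPM (log2FC 0.91 ± 0.16, adjusted p = 0.000832), while COL5A2, at 141, 162 and 180.1 TPM in Luc Control KO, 198, 185 and 207 in Luc TRA2A KO, 188, 219 and 178 in Luc TRA2B KO, 248.8, 226 and 207 in TRA2B-OE Control KO and 242, 248 and 248 in TRA2B-OE TRA2A KO, was not called (adjusted p = 0.173). COL27A1 was at 19.4, 20.7 and 23.8 TPM in Luc Control KO, 29.6, 27.2 and 28.5 in Luc TRA2A KO, 28.99, 35.3 and 29.999 in Luc TRA2B KO, 37.4, 34.8 and 25.2 in TRA2B-OE Control KO and 38.9, 43.1 and 30.8 in TRA2B-OE TRA2A KO. It rose (log2FC 0.45 ± 0.13, adjusted p = 0.0145), but not without Luc Control KO replicate 1 or Luc TRA2B KO replicate 2. COL1A1 was at 26.4, 29.4 and 25.7 TPM in Luc Control KO, 24.7, 24.5 and 19.3 in Luc TRA2A KO, 27.3, 28.4 and 26.1 in Luc TRA2B KO, 101, 91.2 and 85.6 in TRA2B-OE Control KO and 103, 105 and 95.1 in TRA2B-OE TRA2A KO. In Luc TRA2B KO it overlapped the control (log2FC -0.10 ± 0.07, adjusted p = 0.258). COL14A1, a FACIT of type I fibrils, was at 14.02, 14.8 and 13.6 TPM in Luc Control KO, 17.6, 17.1 and 16.5 in Luc TRA2A KO, 6.79, 7.59 and 6.47 in Luc TRA2B KO, 19.7, 18.7 and 14.3 in TRA2B-OE Control KO and 19.6, 19.1 and 17.1 in TRA2B-OE TRA2A KO. It was the 1 chain whose change passed 1 on the log2 scale (log2FC -1.12 ± 0.09, adjusted p = 8.91e-06). COL8A1 was at 23.5, 23.5 and 18.98 TPM in Luc Control KO, 42.5, 36.6 and 28.4 in Luc TRA2A KO, 9.92, 13.9 and 12.95 in Luc TRA2B KO, 68.4, 65.4 and 49.1 in TRA2B-OE Control KO and 80.8, 91.7 and 72.5 in TRA2B-OE TRA2A KO. It fell in the TRA2B knockout (log2FC -0.95 ± 0.15, adjusted p = 0.000309) and was higher than the Luc controls in the other 3 groups. COL9A2 was at 105, 107 and 80.1 TPM in Luc Control KO, 74.8, 77.9 and 58.6 in Luc TRA2A KO, 120.1, 126 and 138 in Luc TRA2B KO, 99.96, 85.97 and 104 in TRA2B-OE Control KO and 79.9, 73.6 and 64.5 in TRA2B-OE TRA2A KO. It lay above the control in Luc TRA2B KO without being called (log2FC 0.30 ± 0.12, adjusted p = 0.0572).

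Of the 14 calls after TRA2B knockout, 12 were made in every fit that left out a library and under every other setting apart from the 2-fold limit, and leaving out a library gave between 13 and 16 calls.

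**Figure D5:**
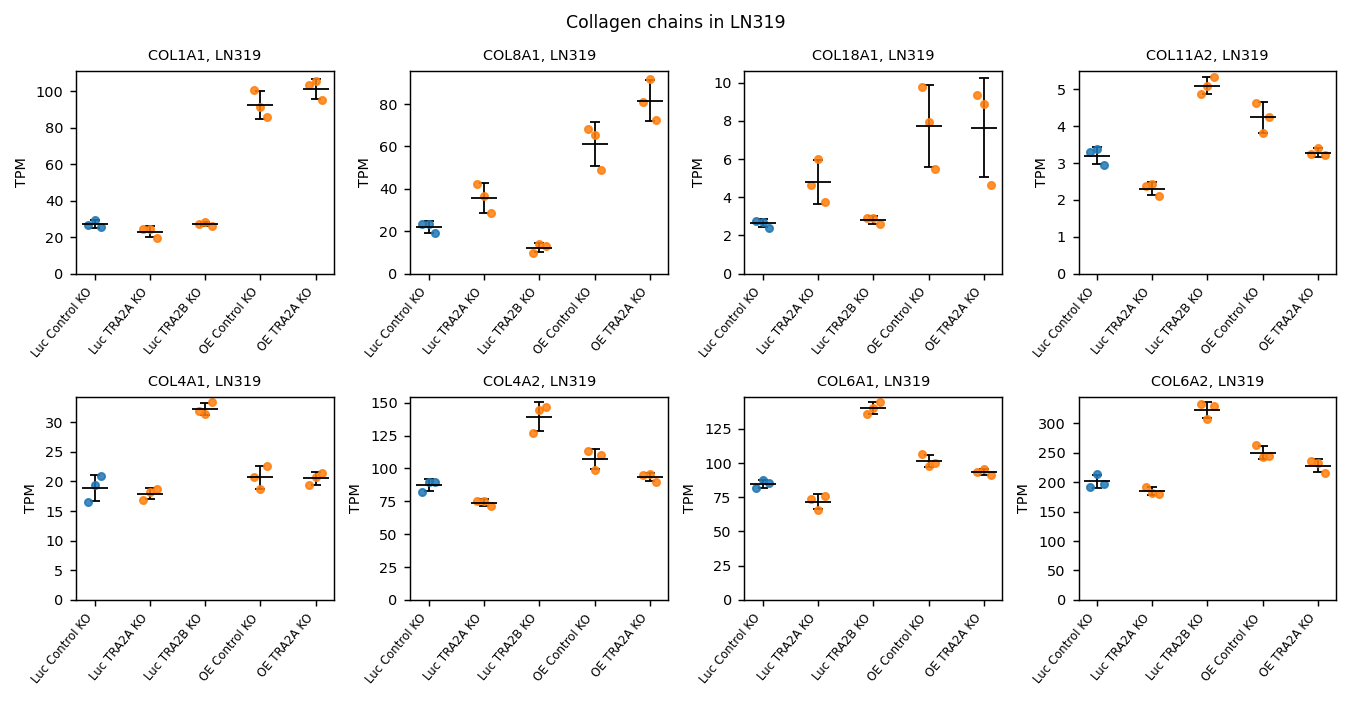
TPM of 8 collagen chains in the 5 groups of LN319. Points are the 3 libraries of each group, with Luc Control KO in blue, bars give the mean and SD, and OE stands for TRA2B-OE. COL4A1, COL4A2, COL6A1, COL6A2 and COL11A2 are highest in Luc TRA2B KO, while COL1A1, COL8A1 and COL18A1 are highest in the 2 TRA2B-OE groups.

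TRA2A knockout in LN319 called 15 of 27 chains, 5 higher and 10 lower, at 14.3% of all genes (6.82% higher and 7.44% lower). The changes were small, with a median of -0.15, and 14 of the 15 had an adjusted p between 0.0154 and 0.0492. COL8A1 rose (log2FC 0.73 ± 0.15, adjusted p = 0.00645), with all 3 knockout libraries above the controls, and it was the 1 chain called under every setting but the 2-fold limit. COL17A1, the hemidesmosome collagen, went from 7.08, 8.396 and 3.02 to 1.91, 3.199 and 1.79 TPM with overlap, and had the largest fall of the 10 (log2FC -1.27 ± 0.37, adjusted p = 0.0368). The other rises were COL18A1 at 0.86 ± 0.24 (adjusted p = 0.0315), COL27A1 at 0.46 ± 0.13 (adjusted p = 0.0354), COL5A2 at 0.34 ± 0.10 (adjusted p = 0.0372) and COL14A1 at 0.31 ± 0.09 (adjusted p = 0.0340). Of the falls, the type XI and IX chains were COL11A1 at -0.26 ± 0.07 (adjusted p = 0.0368), COL11A2 at -0.42 ± 0.10 (adjusted p = 0.0154) and COL9A2 at -0.43 ± 0.12 (adjusted p = 0.0289). The type I, IV and VI chains lower in the knockout were COL1A1 at -0.22 ± 0.07 (adjusted p = 0.0492), COL1A2 at -0.91 ± 0.28 (adjusted p = 0.0491), COL4A2 at -0.20 ± 0.06 (adjusted p = 0.0488), COL4A5 at -0.34 ± 0.10 (adjusted p = 0.0357) and COL6A1 at -0.20 ± 0.06 (adjusted p = 0.0437), and COL8A2 stood at -0.66 ± 0.20 (adjusted p = 0.0399).

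This set of calls did not hold when libraries were left out. It was 3, 1 and 7 without Luc Control KO replicate 1, 2 and 3, and 5, 8 and 3 without Luc TRA2A KO replicate 1, 2 and 3. It was 9 (1 higher, 8 lower) on unscaled TPM, 10 (5 and 5) with quantiles made equal and 2 (1 and 1) without the filter on low TPM. Fibroblast markers summed to 329 to 368 TPM in the knockout, against 511 to 528 in the control, with PDGFRA and THY1, both tested markers of 5, lower. Their part was not tested. COL11A1, COL11A2 and COL9A2 were lower after TRA2A knockout in both glioma lines, while COL18A1 and COL27A1 fell in LN229 and rose in LN319. These 5 were the chains called in both, of 21 tested in both. The share of all genes called in both lines was not computed.

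The 2 knockouts of LN319 were then compared with each other, since the type IV and VI chains stood high in the one and at or below the control in the other. This comparison was chosen after the values were seen. Of 27 chains 16 were higher and 4 lower in Luc TRA2B KO than in Luc TRA2A KO, at 47.2% of all genes, with a median of 0.51. In the same comparison all 4 tested glial markers were higher and 5 of 6 tested lung epithelial markers lower, and mitochondrial transcripts took 18.3 to 20.6% of the TPM against 13.2 to 15.03%. Their part was not tested. All 20 calls held in every fit that left out a library and under every other setting but the 2-fold limit. All 6 type IV chains were higher, among them COL4A5 (log2FC 0.83 ± 0.10, adjusted p = 2.92e-05) and COL4A1 (log2FC 0.70 ± 0.11, adjusted p = 0.000158), as were COL6A1 (log2FC 0.82 ± 0.06, adjusted p = 1.56e-06) and COL6A2 (log2FC 0.66 ± 0.05, adjusted p = 1.37e-06). COL8A1 (log2FC -1.68 ± 0.15, adjusted p = 3.74e-06), COL14A1 (log2FC -1.43 ± 0.09, adjusted p = 6.00e-07), COL18A1 (log2FC -0.87 ± 0.24, adjusted p = 0.00895) and COL11A1 (log2FC -0.55 ± 0.07, adjusted p = 7.03e-05) were lower in the TRA2B knockout. COL1A2 (log2FC 1.32 ± 0.28, adjusted p = 0.00183) and COL8A2 (log2FC 1.17 ± 0.20, adjusted p = 0.000343) were the rises that passed 1 on the log2 scale. COL1A2 was at 1.36, 1.83 and 1.75 and 4.72, 4.19 and 5.15 TPM, and COL8A2 at 2.39999, 3.13 and 2.56 and 6.69, 6.4999 and 7.24, in the TRA2A and TRA2B knockouts. The other higher chains were COL4A2, COL4A3, COL4A4, COL4A6, COL5A1, COL7A1, COL9A2, COL9A3, COL11A2 and COL24A1, with log2FC from 0.40 to 0.97.

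TRA2B overexpression raised 10 of 27 chains in LN319 and lowered none, at 4.31% of all genes (2.16% higher and 2.16% lower). The collagen sum was 1259 to 1440.2 TPM, above the Luc controls, and the median log2FC of the chains was 0.23. COL1A1 led the rises. Its 3 overexpressing controls, listed above, lay more than 3-fold above the Luc controls (log2FC 1.67 ± 0.07, adjusted p = 3.77e-08), while COL1A2 stood at 3.22, 3.31 and 3.17 and 1.503, 1.21 and 3.09 TPM and was not called (log2FC -0.90 ± 0.28, adjusted p = 0.0816). COL8A1 followed (log2FC 1.37 ± 0.15, adjusted p = 0.000463). These 2 chains were called under every setting. COL5A1 went from 1.08, 1.45 and 1.48 to 3.61, 3.88 and 3.73 TPM (log2FC 1.35 ± 0.16, adjusted p = 0.00123), and COL18A1 from 2.78, 2.73 and 2.398 to 9.79, 7.95 and 5.48 (log2FC 1.40 ± 0.24, adjusted p = 0.0107). Smaller rises were called for COL24A1 at 0.65 ± 0.13 (adjusted p = 0.0205), COL16A1 at 0.58 ± 0.13 (adjusted p = 0.0334), COL27A1 at 0.51 ± 0.13 (adjusted p = 0.04999), COL5A2 at 0.42 ± 0.10 (adjusted p = 0.0371), COL7A1 at 0.37 ± 0.10 (adjusted p = 0.04999) and COL6A2 at 0.23 ± 0.05 (adjusted p = 0.0251). Leaving out a library changed the count to 6, 5 and 5 without Luc Control KO replicate 1, 2 and 3, and to 4 and 5 without TRA2B-OE Control KO replicate 1 and 2. Without TRA2B-OE Control KO replicate 3 it was 12, 11 higher and 1 lower, and the lower chain was COL1A2 (log2FC -1.31, adjusted p = 0.00483). In the paper's immunoblots, TRA2B overexpression in LN319 also strongly lowered TRA2A. The Luc and TRA2B-OE cells are different stable lines, so TRA2B level, TRA2A level and the line cannot be told apart. In LN229 no chain was called in the same comparison, and the difference between the lines was not tested.

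TRA2A knockout in the TRA2B-OE cells of LN319 called 1 of 27 chains, at 2.77% of all genes. By the paper's immunoblots, these cells held less TRA2A than Luc cells before the knockout. COL24A1, a fibrillar chain, fell from 9.11, 10.5 and 11.8 to 6.504, 6.29 and 7.37 TPM (log2FC -0.57 ± 0.13, adjusted p = 0.0383), and the call was lost without TRA2B-OE Control KO replicate 2 or 3 or TRA2B-OE TRA2A KO replicate 1 or 2. COL8A1 lay above its control (log2FC 0.49 ± 0.15, adjusted p = 0.101) and COL9A2 below (log2FC -0.36 ± 0.12, adjusted p = 0.129), neither called. A test of the difference between the TRA2A knockout in TRA2B-OE cells and in Luc cells called none of the 27 chains by limma, with 4 at an unadjusted p below 0.05 and 0.0207% of all genes called. For COL1A1 the difference was 0.41 ± 0.10 (adjusted p = 0.316), for COL18A1 -0.84 ± 0.34 (adjusted p = 0.555) and for COL4A5 0.11 ± 0.14 (adjusted p = 0.881). So the 15 calls in Luc cells and the 1 call in TRA2B-OE cells are not shown to differ.

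Most of the tested hydroxylation and glycosylation genes fell in each DKD. Of the collagen hydroxylation and glycosylation list, 8 of 14 tested genes fell and 1 rose in A549, and 9 of 13 fell and 1 rose in NCI-H23, where 16.3% and 23.2% of all genes fell. P3H3, a prolyl 3-hydroxylase family member, went from 17.2 to 4.41 mean TPM in A549 (log2FC -2.02, adjusted p = 2.66e-06) and from 13.8 to 4.44 in NCI-H23 (-1.75, adjusted p = 2.35e-05). Of the processing and cross-linking list, 2 of 6 fell in A549, and 7 of 11 fell and 1 rose in NCI-H23. BMP1, the procollagen C-proteinase, went from 98.2 to 43.5 mean TPM in A549 (log2FC -1.22, adjusted p = 4.47e-05) and from 10.4 to 7.66 in NCI-H23 (-0.60, adjusted p = 0.00757). LOXL2, a lysyl oxidase that cross-links collagens, went from 140.4 to 95.1 mean TPM in A549 (log2FC -0.64, adjusted p = 0.000116) and from 61.7 to 18.5 in NCI-H23 (-1.88, adjusted p = 1.56e-08). Among collagen receptors, 4 of 5 fell in A549, and 3 of 5 fell and 1 rose in NCI-H23. DDR1, a receptor tyrosine kinase, went from 42.9 to 18.8 mean TPM in A549 (log2FC -1.26, adjusted p = 7.85e-06) and from 38.99 to 23.3 in NCI-H23 (-0.90, adjusted p = 1.63e-05), and MRC2, an endocytic collagen receptor, went from 79.5 to 44.4 mean TPM in A549 (log2FC -0.92, adjusted p = 0.00338) and from 46.4 to 25.97 in NCI-H23 (-1.003, adjusted p = 0.00145). Collagen chaperones and secretion genes were 2 higher and 1 lower of 9 in A549 and 3 higher and 1 lower of 9 in NCI-H23.

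The TGF-beta axis, a main inducer of collagen genes, was mixed. In A549, 3 of 14 genes rose and 2 fell, and in NCI-H23 4 of 13 rose and 6 fell, where 14.3% and 20% of all genes rose. CTGF went from 41.3 to 134 mean TPM in A549 (log2FC 1.62, adjusted p = 2.51e-05) and from 71.4 to 119 in NCI-H23 (0.58, adjusted p = 7.88e-05). TGFBI went from 1074 to 736 mean TPM in A549 (log2FC -0.62, adjusted p = 0.000546) and from 4.24 to 1.64 in NCI-H23 (-1.54, adjusted p = 0.00205), and TGFB2 went from 56.8 to 76.6 mean TPM in A549 (log2FC 0.37, adjusted p = 0.0286) and from 8.11 to 2.51 in NCI-H23 (-1.81, adjusted p = 4.09e-06). In TRA2A knockout of the glioma lines, 5 of 14 rose and 1 fell in each line, where 1.96% of all genes rose in LN229 and 6.82% in LN319, and CTGF went from 110.2 to 171 mean TPM in LN229 (log2FC 0.69, adjusted p = 0.0361) and from 205 to 528 in LN319 (1.40, adjusted p = 0.00139). After TRA2B knockout in LN319 none rose and 6 of 14 fell, where 24% of all genes fell. The part of this axis in the collagen changes was not tested. Of the hydroxylation and glycosylation list, 3 of 15 fell and 1 rose in LN229 Luc TRA2A KO, 6 of 14 fell and 1 rose in LN319 Luc TRA2A KO, and 7 of 14 fell and 2 rose in LN319 Luc TRA2B KO. The shares of all genes that fell were 1.83%, 7.44% and 24%. In LN319 TRA2B-OE Control KO none of 14 was called by limma. The part of the enzymes in the collagen changes was not tested either.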

How the data were processed

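TPM tables, 1 per cell line, were deposited by the authors with 1 column per library. The paper's methods give poly-A, dUTP-stranded libraries, pseudoalignment with kallisto and a GENCODE annotation of GRCh38. The submitters' processing notes name kallisto 0.48.0 and STAR 2.7.3. The strand setting is not given in the sources used here. TPM keeps no depth, so no counting interval could be given, and reads of antisense or repeated sequence may be shared between genes.

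For each line, a gene had to reach 1 TPM in 4 or more libraries, which left 16405 genes for A549, 16293 for NCI-H23, 18490 for LN229 and 19303 for LN319. Libraries were scaled by trimmed means of log ratios (30% and 5% trims), 0.1 TPM was added before taking log2, and limma 3.58.1 in R 4.3.3 was fitted to all groups of the line with a variance trend. P-values were adjusted by Benjamini-Hochberg over all genes kept, and 0.05 was the threshold. The code was tested on simulated data. With 3 libraries against 3 an exact permutation test cannot go below 0.1, so none was used.

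The collagen members and the gene lists were chosen with earlier results of these data known. Chains with a control mean of at least 10 TPM, or called with an absolute log2 change above 1, were given library by library, the other called chains by fold and p, and the rest by range or name. Pathway genes were named where called in both lines of a pair with an absolute log2 change above 1 in either, apart from 1 gene not reported here. Alternatives were pseudocounts of 0.5 and 1, no filter, a 5 TPM minimum, TPM as deposited, quantile normalization, a 2-fold limit, a replicate block, a fit of the compared groups alone, and leaving out each library. The comparison of both LN319 knockouts was added after the values were seen. Figures were drawn with matplotlib 3.10.9.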

Additional observations from a re-analysis of the deposited data

Results flagged for a closer look

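For 7 pairs of values, every library of a perturbation moved one way from its controls in one line and the other way in its partner line. Such pairs were sought among the collagen chains only, so how common they are among all genes is not known. The difference between the lines was not tested in any of them, since the lines were quantified in separate tables. In the TRA2A/B DKD, COL6A2 changed by -0.61 on the log2 scale in A549 and by 0.59 in NCI-H23, and COL4A6 by 0.13 and -0.37. After TRA2A knockout, COL18A1 changed by -0.88 in LN229 and 0.86 in LN319, and COL27A1 by -0.44 and 0.46. After TRA2B knockout, COL4A1 changed by -0.26 in LN229 and 0.66 in LN319, and COL7A1 by -0.41 and 0.34. After TRA2A knockout in TRA2B-OE cells, COL4A5 changed by 0.23 in LN229 and -0.23 in LN319. Of these values, those of COL4A6 in A549, of COL4A1 and COL7A1 in LN229 and of COL4A5 in both lines did not pass the test against their own control.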

How the results depend on the processing

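No called chain changed direction under any alternative that was run. Of the single-chain calls that could be refitted, 104 held and 2 were lost with a pseudocount of 0.5, 103 and 3 with 1, 104 and 2 with the replicate block, 96 and 10 after quantile normalization, 89 and 17 on unscaled deposited TPM, 75 and 31 without a filter, 88 and 3 with a 5 TPM minimum, and 58 and 39 with only the compared groups in the fit. Over all fits that left out a library, calls held 512 times and were lost 178 times. These totals include the calls of the DKD minus both single KDs. They also include the 20 calls between both LN319 knockouts, which were compared after the values were seen and lost none of these calls outside the 2-fold limit.

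Some counts of called chains moved by over 1.5 times. On unscaled TPM, 2 chains were called in A549 for the DKD minus both single KDs (7 with scaling), 4 in the NCI-H23 DKD (7), 1 in LN229 Luc TRA2B KO (2) and 9 in LN319 Luc TRA2A KO (15). On unscaled TPM the median log2 change of all genes was over 0.1 in size in 7 comparisons, from -0.12 in A549 TRA2A KD to 0.26 for the A549 DKD minus both single KDs. With the 2-fold limit, 5 were called in the A549 DKD (12) and 3 for it minus both single KDs (7), 3 in the NCI-H23 DKD (7) and 1 for it minus both single KDs (2), 3 in LN229 Luc TRA2A KO (9), 0 in LN229 Luc TRA2B KO, 2 in LN229 TRA2B-OE TRA2A KO (7), 1 in LN319 Luc TRA2A KO (15), 1 in LN319 Luc TRA2B KO (14), 4 in LN319 TRA2B-OE Control KO (10), 0 in LN319 TRA2B-OE TRA2A KO (1) and 4 between both LN319 knockouts (20). Without the filter, which also changes the genes tested, 3 were called in LN229 Luc TRA2A KO, 0 in LN229 Luc TRA2B KO, 2 in LN319 Luc TRA2A KO, 6 in LN319 TRA2B-OE Control KO and 0 in LN319 TRA2B-OE TRA2A KO. The A549 DKD then had 15, with COL5A3, COL9A1 and COL23A1 higher. Their means in A549 Control KD were 0.215, 0 and 0 TPM, where log2 values depend on the added 0.1 TPM. Pseudocounts of 0.5 and 1 and the 5 TPM minimum each left 1 in LN229 Luc TRA2B KO, and quantile normalization 0 in LN319 TRA2B-OE TRA2A KO. With only the compared groups, which leaves fewer samples for the spread, 0 were called in LN229 Luc TRA2A KO and in LN229 Luc TRA2B KO, 3 in LN229 TRA2B-OE TRA2A KO, 6 in LN319 Luc TRA2A KO, 2 in LN319 TRA2B-OE Control KO and 0 in LN319 TRA2B-OE TRA2A KO. Where no cause is given, the cause was not tested.

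The fits above did not pair the samples by replicate number. No comparison had a correlation over 0.1 between same-numbered samples for all 3 numbers, but single numbers did. In LN229, replicate 1 of Luc Control KO correlated at 0.160 with replicate 1 of Luc TRA2A KO. With replicate 1 of TRA2B-OE Control KO it correlated at 0.212, and both were best matches. So a shift shared by same-numbered samples is not excluded. With the replicate block, 1 chain (COL1A1) was called in NCI-H23 TRA2A KD, where none was called without it, 4 in LN229 Luc TRA2B KO (2 without it) and 3 in LN229 TRA2B-OE Control KO (0 without it). It also called COL5A1 higher in LN229 Luc TRA2A KO (0.72, adjusted p = 0.0199 by limma) and TRA2B-OE TRA2A KO (0.80, adjusted p = 0.0112), and COL8A1 and COL18A1 lower in the latter. In 2 comparisons, A549 TRA2B KD and LN319 Luc TRA2B KO against Luc TRA2A KO, every sample correlated best with its own number.

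Leaving out 1 library at a time gave 10 to 12 calls in the A549 DKD, 5 to 9 for it minus both single KDs, 0 to 1 in NCI-H23 TRA2A KD (1 without TRA2A KD replicate 1), 3 to 6 in the NCI-H23 DKD, 2 to 3 for it minus both single KDs, 1 to 8 in LN229 Luc TRA2A KO, 0 to 12 in LN229 Luc TRA2B KO, 0 to 1 in LN229 TRA2B-OE Control KO (1 without Luc Control KO replicate 3), 4 to 8 in LN229 TRA2B-OE TRA2A KO, 1 to 8 in LN319 Luc TRA2A KO, 13 to 16 in LN319 Luc TRA2B KO, 4 to 12 in LN319 TRA2B-OE Control KO, 0 to 1 in LN319 TRA2B-OE TRA2A KO and 20 to 21 between both LN319 knockouts. Depth is unknown, so what it limits could not be given.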
